A study of Homo sapiens with 16 samples.

Results

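The keratin gene family was followed across 16 RNA-seq libraries of RWPE1 cells. Its members were the genes whose symbol in the deposited table is KRT and a number, with at most 1 of the letters A to C after it, which took in 55 of 20166 gene symbols. Symbols alone, and no measured value, decided which genes belong, while the family itself was chosen with earlier results of these data known. RWPE1 is an established human prostate epithelial line, immortalised with a human papillomavirus. The libraries fall into 3 groups by their labels. In 4 libraries the cells over-expressed the T164A mutant of a homeobox protein, in 6 they over-expressed the wild-type protein, and 6 carried the empty vector, an altered pTRIPZ that serves as the control. All groups are thus engineered cells of the same line, and untreated RWPE1 cells are not analysed here. The labels do not say whether the libraries of a group are separate cultures or clones, and p-values therefore rest on the scatter among libraries, which may be technical. Libraries are named here by the number in their sample label: 91 to 94 for T164A, 13 to 18 for wild type and 1 to 6 for vector.

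Keratins are the intermediate filament proteins of epithelia. A filament forms only from equal parts of a type I and a type II keratin, and particular partners are made together: KRT5 with KRT14 in the basal layer of stratified epithelia, KRT1 with KRT10 in the layers above it, KRT4 with KRT13 in moist stratified linings, KRT6A with KRT16 in wounded or fast-growing epithelium, and KRT8 with KRT18 in simple epithelia. In the prostate, KRT5 and KRT14 mark basal cells and KRT8 and KRT18 mark luminal cells, and pathologists use this split to tell the layers apart. Filaments are anchored at the cell's edge in desmosomes and hemidesmosomes.

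Values are on the deposited log2 scale. From the spacing of the values, each library holds an estimated 12336242 to 19240311 reads, and 3 reads correspond to a value of 2.30 on average, which is used as a floor of detection. Differences between groups were tested with limma over all 20166 symbols, with Benjamini-Hochberg adjustment and a threshold of 0.05, and "rose" and "fell" are used only of genes past it. Both comparisons with vector use the same 6 vector libraries.

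Most of the family was lower in the T164A libraries, while KRT14 was not called and KRT8 and KRT18, the luminal pair, were higher. Of the 55 keratins, 4 rose and 31 fell in T164A against vector, and the median difference over the family was -1.59, beside 0.11 over all symbols. Of all symbols, 37.1% rose and 27.2% fell in that comparison, so the 56.4% of keratins that fell stands against 27.2%. In wild type against vector, 2 keratins rose and 23 fell, with a median of -0.54 beside -0.05 over all symbols, and the background was 21% rising and 24.5% falling. With sets of close libraries averaged, 15 keratins were lower, beside 1547 of the 20166 symbols. The share of higher calls among all calls was then 59.5%, against 46.2% with every library separate. A minimum fold of 1.2 also turned that share, to 61.4%, with 18 keratins lower beside 1578 of the 20166 symbols. In T164A against wild type, 5 rose and 30 fell, with a median of -1.43 beside 0.08, against a background of 35.1% rising and 26.7% falling. The medians of the family and of all symbols use raw differences, also of genes below the floor. For the family these include 23 keratins below it in every group, so the sizes of its medians are not measured folds. After quantile normalization the counts of keratins were 3 higher and 32 lower, 2 and 24, and 4 and 30 in these comparisons. Of the 20166 symbols, 6201 were then higher and 6940 lower, 3775 and 6136, and 6074 and 6427. That normalization moved the median difference between T164A and vector, over the 11167 symbols with a mean of at least 6, to -0.06, against 0.11 as deposited. It also moved the share of higher calls among all calls to 47.2%, against 57.7% as deposited. In bulk RNA, fewer cells of a type and less RNA per cell cannot be told apart.

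A mean above the floor in at least 1 group was reached by 32 keratins, and 23 stayed below it in every group. The 23 include most hair, nail and hair-sheath keratins. Full values are given for the 18 members with a mean of at least 8 in a group, which include the 5 family markers KRT5, KRT14, KRT1, KRT8 and KRT18.

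**Figure D1:**
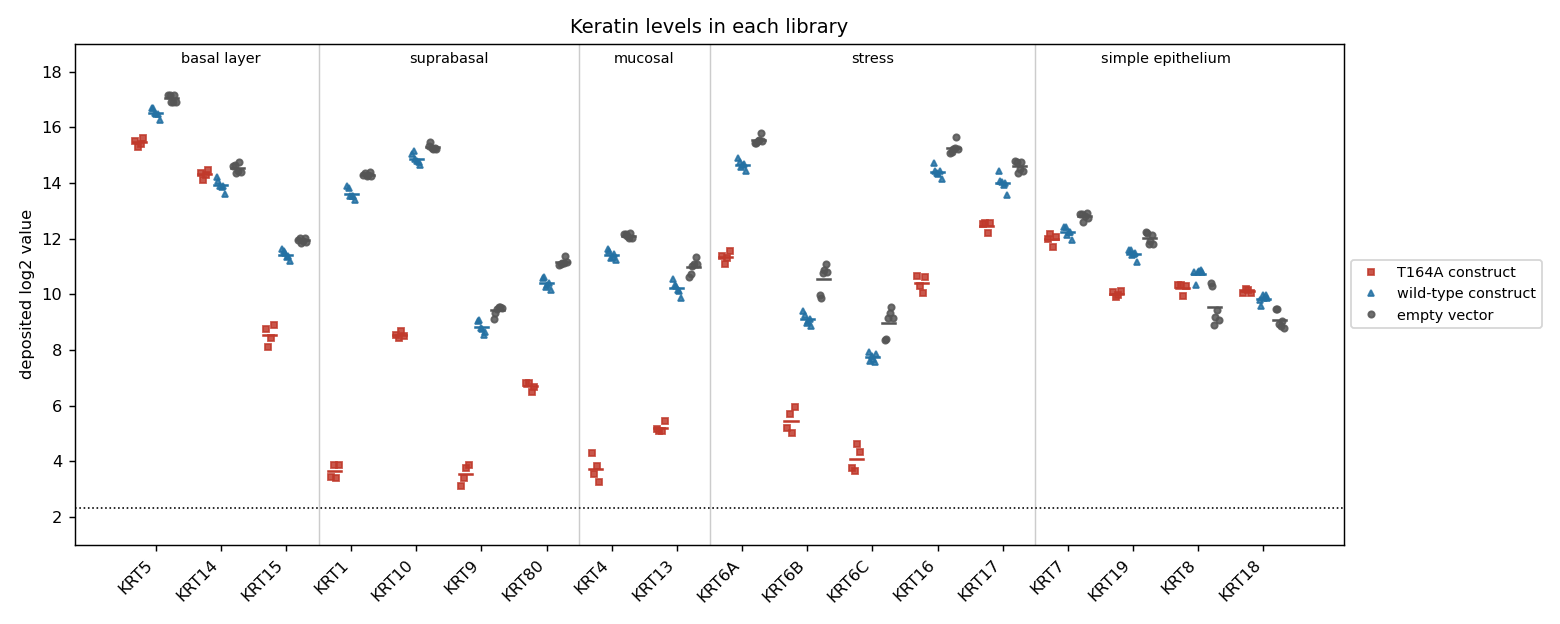
Deposited log2 value (vertical axis) of the 18 keratins with a group mean of at least 8, with a point for each library and a short line at the group mean; the dotted line is the floor of 2.30. KRT1, KRT9 and KRT4 lie just above the floor in T164A libraries, whereas KRT14 lies between 14.1 and 14.5 in all 4 of them.

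The basal-layer keratins did not move together in the T164A libraries. KRT5, the type II keratin of basal cells, had values of 15.51, 15.29, 15.41 and 15.63 in T164A libraries. It had 16.26 at the lowest, 16.50 at the median and 16.72 at the highest in wild-type libraries, and 16.91, 17.05 and 17.18 in vector libraries. The 3 groups did not overlap, with T164A lowest and vector highest in every library. KRT5 fell by 1.59 ± 0.10 (difference ± SE) in T164A against vector (limma adjusted p = 1.65e-13) and by 0.53 ± 0.09 in wild type against vector (adjusted p = 2.12e-05). The difference of wild type was -0.10 after quantile normalization, no longer called, and that of T164A was -1.02.

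KRT14 is the type I partner of KRT5. Its values were 14.38, 14.11, 14.29 and 14.47 in T164A libraries, 13.59, 13.90 and 14.23 (lowest, median, highest) in wild-type libraries, and 14.35, 14.51 and 14.77 in vector libraries. T164A overlapped both other groups, and wild type lay wholly below vector. The difference of T164A and vector was -0.21 ± 0.10 (limma adjusted p = 0.0668), which did not pass the test. It turned to 0.01 after quantile normalization, and passed when vector library 3 (-0.25, adjusted p = 0.0391), vector library 6 (-0.24, 0.0489), wild-type library 18 (-0.21, 0.0417) or T164A library 94 (-0.27, 0.0373) was left out, and at -0.36 (0.00955) without vector libraries 3, 4 and 6. Without vector libraries 1, 2 and 5 it was -0.07 (adjusted p = 0.603). Against wild type, KRT14 was higher in T164A by 0.38 ± 0.10 (adjusted p = 0.00173), or by 0.32 (adjusted p = 0.119) with sets of close libraries averaged, and it fell by 0.60 ± 0.09 in wild type against vector (adjusted p = 4.83e-06).

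KRT15 is a type I keratin of basal cells and of hair-follicle stem cells. In T164A libraries it had 8.76, 8.10, 8.42 and 8.90, against 11.19, 11.43 and 11.61 in wild-type libraries and 11.83, 11.93 and 12.03 in vector libraries. All T164A values lay more than 2 units below those of the other groups. KRT15 fell by 3.39 ± 0.11 in T164A against vector (adjusted p = 2.06e-19) and by 0.51 ± 0.10 in wild type (adjusted p = 7.67e-05).

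Among 10 other genes of the prostate basal layer, 2 rose and 7 fell in T164A against vector, and 1 rose and 9 fell in wild type. Of all symbols, 37.1% rose and 27.2% fell in T164A, and 21% rose and 24.5% fell in wild type. This list and those of other genes below were chosen with earlier results of these data known. TP63, the transcription factor that maintains basal cells, averaged 11.16 ± 0.26 in T164A, 11.82 ± 0.19 in wild type and 12.45 ± 0.07 in vector libraries (SD, n = 4, 6 and 6). DSG3, a desmosomal cadherin, fell by 4.18 in T164A. The summed share of reads of these 10 genes was 0.496% to 0.551% in T164A, 0.462% to 0.613% in wild-type and 0.665% to 0.736% in vector libraries, and none was below the floor throughout a group.

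All 10 members of the suprabasal list fell in T164A against vector, with a median raw difference of -4.51, and 7 of the 10 fell in wild type, with a median of -0.63. The raw differences include those of members with a mean below the floor, given as bounds below, so the size of -4.51 is not a measured fold. Of all symbols, 27.2% and 24.5% fell in these comparisons. KRT1, the type II keratin of cells that have left the basal layer, had 3.43, 3.87, 3.39 and 3.86 in T164A libraries. It had 13.38, 13.52 and 13.88 in wild-type libraries and 14.25, 14.28 and 14.40 in vector libraries. T164A values were near the floor, and wild-type values were just below those of vector without overlap. KRT1 fell by 10.67 ± 0.10 in T164A (adjusted p = 2.92e-30) and by 0.70 ± 0.09 in wild type (adjusted p = 2.37e-07).

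KRT10, its type I partner, stayed measurable in T164A libraries at 8.53, 8.41, 8.68 and 8.51. It had 14.63, 14.83 and 15.15 in wild-type libraries and 15.23, 15.26 and 15.46 in vector libraries. The groups did not overlap. KRT10 fell by 6.76 ± 0.08 in T164A against vector (adjusted p = 1.92e-27). In wild type it fell by 0.43 ± 0.07 (adjusted p = 2.76e-05), a difference that was -0.02 and not called after quantile normalization.

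KRT9, a type I keratin of palm and sole skin, averaged 3.53 ± 0.35 in T164A, 8.81 ± 0.20 in wild type and 9.42 ± 0.17 in vector libraries, and KRT80, a type II keratin linked to desmosomes, averaged 6.69 ± 0.15, 10.40 ± 0.18 and 11.16 ± 0.11 in the same order. In T164A against vector KRT9 fell by 5.89 and KRT80 fell by 4.46, and in wild type KRT9 fell by 0.61 and KRT80 fell by 0.76. KRT78 fell by 4.56 in T164A. KRT76, KRT77, KRT2, KRT12 and KRT3 had T164A means below the floor, so that their differences from vector are bounds, of at most -2.56, -1.196, -1.17, -0.59 and -0.31.

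The mucosal pair followed the same order. KRT4, the type II keratin of oesophagus and other moist linings, had 4.31, 3.53, 3.81 and 3.24 in T164A libraries, against 11.22, 11.38 and 11.64 in wild-type libraries and 12.01, 12.12 and 12.20 in vector libraries. T164A values were close to the floor and no groups overlapped. KRT4 fell by 8.39 ± 0.13 in T164A (adjusted p = 1.47e-25) and by 0.69 ± 0.11 in wild type (adjusted p = 1.26e-05). KRT13, its type I partner, had 5.16, 5.10, 5.09 and 5.43 in T164A libraries, 9.87, 10.24 and 10.54 in wild-type libraries, and 10.62, 11.05 and 11.34 in vector libraries. No groups overlapped here either, and KRT13 fell by 5.78 ± 0.12 in T164A and fell by 0.76 ± 0.11 in wild type.

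Markers of squamous differentiation outside the family were mostly lower too. In T164A all 12 fell against vector, beside 27.2% of all symbols, while 1 rose and 8 fell in wild type, beside 21% and 24.5%. Their summed share of reads was 0.00304% to 0.00396% in T164A, 0.0487% to 0.0640% in wild-type and 0.0808% to 0.118% in vector libraries. DSG1, the desmosomal cadherin of upper layers, had a difference of at most -7.95 in T164A against vector, with its T164A mean below the floor, and SPRR3, a cornified-envelope precursor, fell by 2.36 in wild type. The part of such cells in the keratin differences was not tested.

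Promoter sequence is shown for 2 keratins that fell far in T164A (KRT10 and KRT4), for KRT5, which fell less, and for KRT8, which rose. The stretches are the 100 bases before the annotated start, on the strand of transcription, from RefSeq on GRCh38.p14, which is not the build of the deposited data. No other start of a gene was looked at, and the start used in these cells was not examined. Capitals mark a TATAA motif. They are from KRT5 (chr12:52520395-52520494), KRT10 (chr17:40822615-40822714), KRT4 (chr12:52814117-52814216) and KRT8 (chr12:52926470-52926569), all on the minus strand.
KRT5: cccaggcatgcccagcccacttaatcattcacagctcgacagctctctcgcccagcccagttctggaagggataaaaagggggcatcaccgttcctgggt
KRT10: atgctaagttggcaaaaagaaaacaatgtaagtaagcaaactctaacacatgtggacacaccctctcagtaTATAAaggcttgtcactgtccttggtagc
KRT4: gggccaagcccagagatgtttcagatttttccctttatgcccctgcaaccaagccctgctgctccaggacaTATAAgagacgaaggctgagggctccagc
KRT8: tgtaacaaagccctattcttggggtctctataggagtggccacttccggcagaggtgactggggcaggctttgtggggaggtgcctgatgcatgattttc
KRT10 and KRT4 hold the motif 29 bases before the start, and KRT5 and KRT8 have no exact match to these letters in the window. A promoter of 300 bases, from 250 before to 50 after the start, was at hand for 34 of the 55 members. They include 5 of the 18 keratins described in full and 14 of the 32 above the floor, so the shares mostly describe members below it. TATAA on either strand was in 25 of the 34 (73.5%), against 21.1% of 27305 promoters, and in 8 of the 14 above the floor. The GC box GGGCGG was in 6 of 34 (17.6%), against 44.6%, and the AP-2 motif GCCNNNGGC in 5 of 34 (14.7%), against 23.0%. The AP-1 motif TGANTCA was in 0 of 34, against 7.76%. All motifs were searched on both strands and may overlap, and a match is a description and no binding site.

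All 5 stress keratins fell in both comparisons with vector, beside 27.2% of all symbols in T164A and 24.5% in wild type. The KRT6 genes are near copies, and where 50-base stretches of coding sequence were compared, 50.1% of those of KRT6A, 62.2% of KRT6B and 71.4% of KRT6C also occur in another copy. The labels do not say how such reads were assigned, so the values of each KRT6 gene are uncertain. Bases 664 to 723 of the 1695-base coding sequences, from the GENCODE 29 transcripts, hold 9 of the 52 positions that are not the same in all 3 genes, and are shown for that reason, with those positions in capitals.
KRT6A: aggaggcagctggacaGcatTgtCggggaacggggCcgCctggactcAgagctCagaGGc
KRT6B: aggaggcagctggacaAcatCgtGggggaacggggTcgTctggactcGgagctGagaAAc
KRT6C: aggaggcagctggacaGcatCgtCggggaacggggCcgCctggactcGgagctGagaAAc
KRT14 and KRT16 share fewer such stretches, 13.5% for KRT14 and 13.6% for KRT16, and KRT17 has 2.08%. KRT8 and KRT18 have many processed pseudogenes, so their values carry the same uncertainty.

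KRT6A, a type II keratin induced at wound edges, had 11.37, 11.09, 11.31 and 11.57 in T164A libraries. It had 14.43, 14.67 and 14.89 in wild-type libraries and 15.45, 15.50 and 15.79 in vector libraries. The groups were apart, with T164A lowest. KRT6A fell by 4.20 ± 0.09 in T164A (adjusted p = 1.72e-22) and by 0.87 ± 0.08 in wild type (adjusted p = 2.26e-09). In T164A, KRT6B fell by 5.11 and KRT6C fell by 4.89, and in wild type KRT6B fell by 1.45 and KRT6C fell by 1.25. KRT16, the type I partner of KRT6A, had 10.65, 10.28, 10.03 and 10.62 in T164A libraries, 14.13, 14.41 and 14.72 in wild-type libraries, and 15.09, 15.22 and 15.66 in vector libraries. No groups overlapped, and KRT16 fell by 4.87 ± 0.12 in T164A and fell by 0.85 ± 0.10 in wild type.

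KRT17 is a type I keratin of hair follicles, basal appendage cells and injured skin. It had 12.52, 12.58, 12.20 and 12.56 in T164A libraries, 13.58, 14.02 and 14.43 in wild-type libraries and 14.37, 14.64 and 14.80 in vector libraries. Wild type and vector overlapped narrowly, through wild-type library 13. KRT17 fell by 2.14 ± 0.12 in T164A (adjusted p = 1.09e-14) and by 0.59 ± 0.10 in wild type (adjusted p = 3.62e-05).

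Among the 6 keratins of simple epithelia, 2 rose (33.3%) and 4 fell (66.7%) in T164A against vector, beside 37.1% and 27.2% of all symbols. The share that rose was thus no higher than over all symbols. KRT8, the type II keratin of luminal cells, had 10.33, 10.35, 9.94 and 10.31 in T164A libraries. It had 10.35, 10.80 and 10.87 in wild-type libraries, and 8.90, 9.31 and 10.41 in vector libraries. Vector libraries were the most scattered (SD 0.64), since libraries 1 and 2 had 10.41 and 10.29 and the other vector libraries had 8.90 to 9.43. T164A and vector overlapped for that reason, as did wild type and vector. KRT8 rose by 1.19 ± 0.19 in wild type (adjusted p = 6.84e-06) and by 0.68 ± 0.21 in T164A (adjusted p = 0.00535). Without vector libraries 3, 4 and 6 the difference of T164A was 0.19 (adjusted p = 0.363), without vector libraries 1, 2 and 5 it was 1.17 (adjusted p = 8.14e-09), and with sets of close libraries averaged it was 0.52 (adjusted p = 0.0683). Tested against a minimum fold of 1.2, its adjusted p was 0.0535. The rise in wild type was 0.70 (adjusted p = 0.00105) without vector libraries 3, 4 and 6.

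KRT18, its type I partner, rose in both groups. It had 10.05, 10.19, 10.14 and 10.04 in T164A libraries, 9.56, 9.88 and 9.98 in wild-type libraries, and 8.80, 8.98 and 9.47 in vector libraries. T164A lay highest and vector lowest, with no overlap. KRT18 rose by 1.02 ± 0.11 in T164A (adjusted p = 8.44e-09) and by 0.76 ± 0.10 in wild type (adjusted p = 6.66e-07). Between T164A and wild type the pair differed in sign, with KRT8 lower by 0.51 ± 0.21 (adjusted p = 0.0341) and KRT18 higher by 0.26 ± 0.11 (adjusted p = 0.0440). Both calls depended on single libraries. Leaving out wild-type library 13, 15, 16, 17 or 18 or T164A library 93 ended the KRT8 call, with differences of -0.50 to -0.42. Leaving out wild-type library 13, 14, 16 or 18 or any T164A library ended the KRT18 call, with differences of 0.21 to 0.28, and quantile normalization gave 0.12.

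The luminal markers outside the family were high in wild type. All 12 rose in wild type against vector, beside 21% of all symbols, while 4 rose and 4 fell in T164A, beside 37.1% and 27.2%. Of those 4 that fell, KLK3 and MSMB had means below the floor in both groups. Their summed share of reads was 0.00966% to 0.0102% in T164A, 0.362% to 0.778% in wild-type and 0.00269% to 0.00328% in vector libraries. KLK3, KLK2, MSMB, HPN and PLA2G2A, which code for secreted or surface proteins of luminal cells, were below the floor in every T164A library. Their vector means were below the floor too, and HPN and PLA2G2A were below it in every vector library. The part of luminal cells in the KRT8 and KRT18 differences was not tested.

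KRT7, a type II keratin of ducts and glands, had 11.97, 12.18, 11.71 and 12.04 in T164A libraries, 11.97, 12.25 and 12.41 in wild-type libraries, and 12.61, 12.84 and 12.93 in vector libraries. T164A and wild type overlapped, and both lay below vector. KRT7 fell by 0.83 ± 0.09 in T164A (adjusted p = 5.50e-09) and by 0.57 ± 0.08 in wild type (adjusted p = 1.50e-06). KRT19, a type I keratin found in basal and luminal prostate cells, averaged 10.02 ± 0.10 in T164A, 11.45 ± 0.17 in wild-type and 12.01 ± 0.20 in vector libraries, and fell by 1.99 in T164A and fell by 0.56 in wild type. KRT23 fell by 4.73 in T164A. KRT20, the keratin of urothelial surface and gut cells, was below the floor in T164A, with a difference from vector of at most -0.52.

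**Figure D2:**
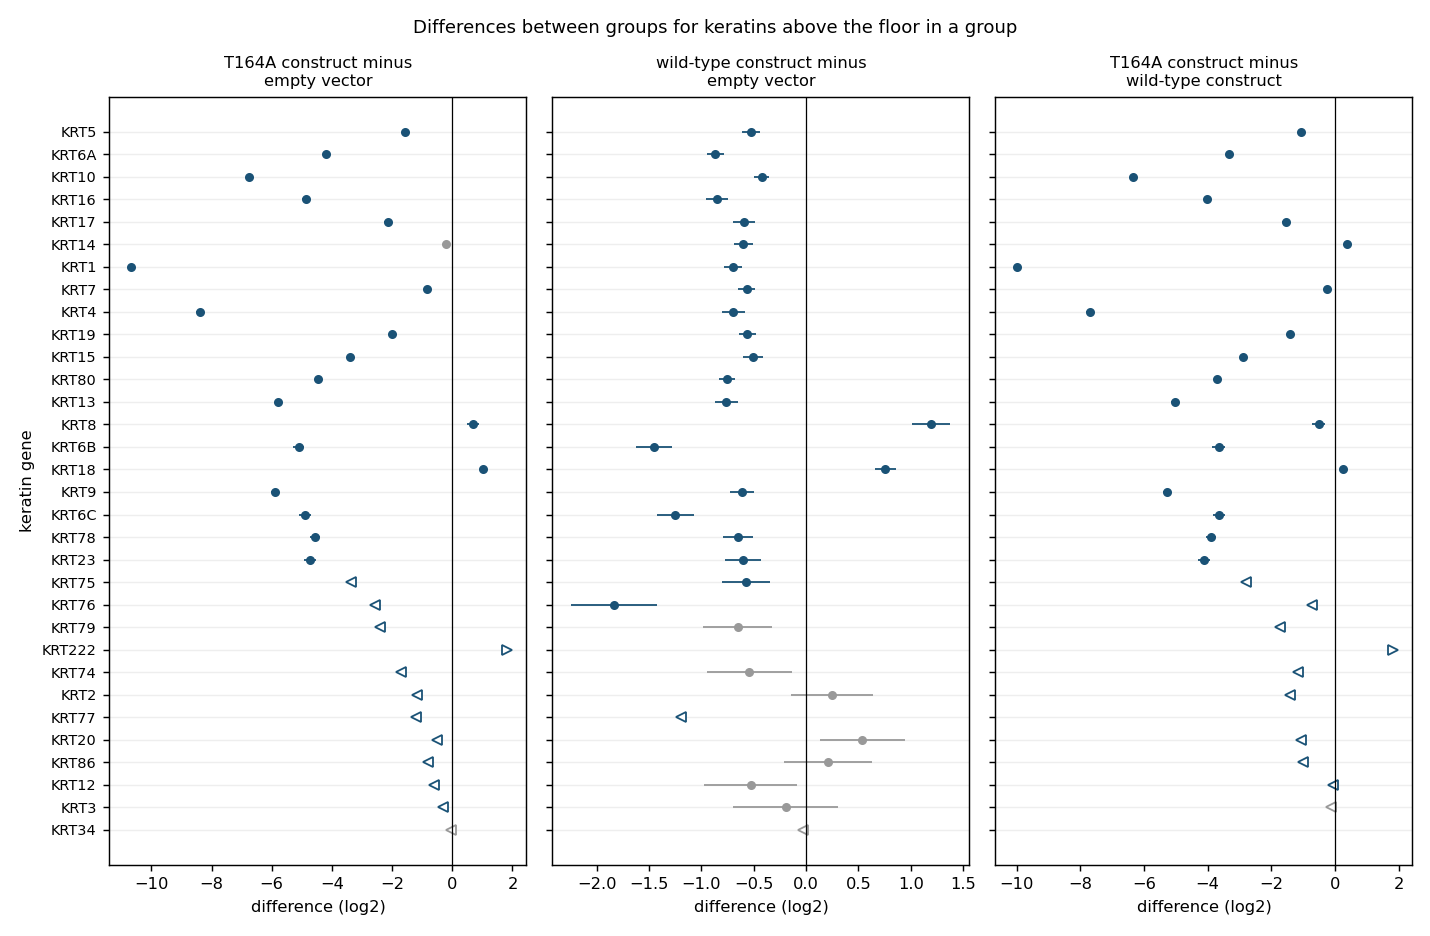
Difference between groups on the log2 scale (horizontal axis, with a narrower range in the middle panel) for the 32 keratins above the floor in a group, as points with their SE; dark points passed the limma test, grey ones did not, and open triangles are bounds where 1 group lies below the floor. In T164A against vector, KRT1 lies lowest at -10.67, while in wild type against vector most keratins lie between -0.4 and -0.9.

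The remaining members above the floor were few. KRT222, a short type I relative, averaged 4.13 ± 0.56 in T164A and was below the floor in the other groups, so it was higher by at least 1.83 in T164A than in either. KRT75, KRT79, KRT74 and KRT86 had T164A means below the floor and differences from vector of at most -3.36, -2.39, -1.71 and -0.79. KRT34 was not called. Of the 23 keratins below the floor in every group, 1 was called higher (KRT27, 4.35%) and 4 lower (KRT40, KRT32, KRT39 and KRT26, 17.4%) in T164A against vector. Over all symbols the shares were 37.1% and 27.2%. In wild type against vector 2 of the 23 were called lower (KRT27 and KRT24, 8.70%), beside 24.5% of all symbols. These calls are part of the family counts given above, and no fold is given for them.

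A filament takes equal parts of both partners as protein. The difference in RNA between a type II keratin and its partner within a library was therefore compared between groups, without a test. Its size depends also on transcript length, so that only its shift between groups is read. KRT5 minus KRT14 was 1.13 to 1.18 in T164A, 2.46 to 2.66 in wild-type and 2.39 to 2.58 in vector libraries. T164A lay apart from the other groups, which overlapped. KRT1 minus KRT10 averaged -4.90 ± 0.36 in T164A, -1.26 ± 0.07 in wild-type and -0.99 ± 0.08 in vector libraries. KRT4 minus KRT13 was below 0 in every T164A library, averaging -1.47 ± 0.56, and above 0 in all the others, at 1.198 ± 0.139 in wild-type and 1.13 ± 0.30 in vector libraries. In these 2 pairs the type II member was near the floor in T164A, where values are least certain. KRT6A minus KRT16 averaged 0.94 ± 0.24 in T164A, 0.26 ± 0.06 in wild-type and 0.27 ± 0.08 in vector libraries. KRT8 minus KRT18 averaged 0.13 ± 0.22 in T164A, 0.90 ± 0.09 in wild-type and 0.46 ± 0.37 in vector libraries, and vector overlapped both.

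**Figure D3:**
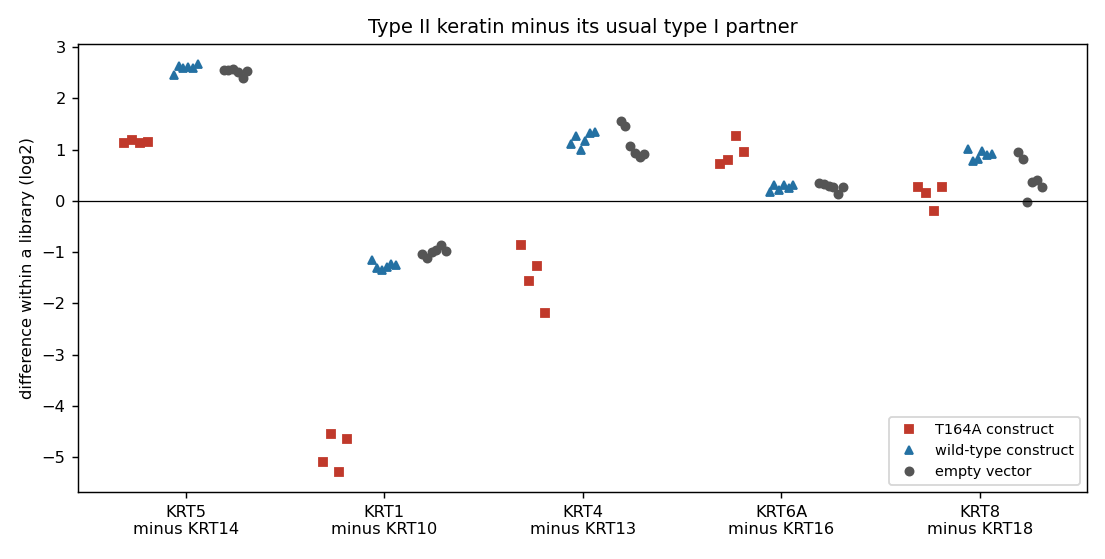
Difference within each library between a type II keratin and its usual type I partner, on the log2 scale, with a point for each library. T164A libraries stand apart for the first 4 pairs, whereas KRT8 minus KRT18 overlaps between T164A and vector.

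As a share of all estimated reads, the 55 keratins together took 0.534% ± 0.046 in T164A, 1.64% ± 0.17 in wild-type and 2.37% ± 0.15 in vector libraries (SD, n = 4, 6 and 6). Reads were then divided by transcript length, which allows levels to be compared between genes, and each keratin was given as a share of the family's total. KRT5 was the most abundant keratin in all groups, at 44.5% ± 1.1 in T164A, 33.9% ± 0.8 in wild-type and 31.8% ± 1.4 in vector libraries. KRT14 ranked next in T164A, at 30.6% ± 1.2, against 8.56% ± 0.25 in wild-type and 8.45% ± 0.34 in vector libraries. The larger share stands beside a KRT14 level that was not called different from vector, since the rest of the pool was smaller. KRT1 and KRT10 together made up 0.447% ± 0.052 in T164A, 17.6% ± 0.8 in wild-type and 16.2% ± 1.0 in vector libraries. KRT6A and KRT16 gave 4.85% ± 0.29 in T164A, 22.4% ± 0.8 in wild-type and 26.5% ± 2.5 in vector libraries. KRT8 and KRT18 gave 2.87% ± 0.32 in T164A, 1.15% ± 0.22 in wild-type and 0.390% ± 0.123 in vector libraries. KRT17 had 8.60% ± 1.07 in T164A, 9.15% ± 0.75 in wild-type and 9.003% ± 0.705 in vector libraries, which overlapped. The type II share of the pool was 54.5% ± 0.3 in T164A, 53.6% ± 0.9 in wild-type and 53.6% in vector libraries.

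**Figure D4:**
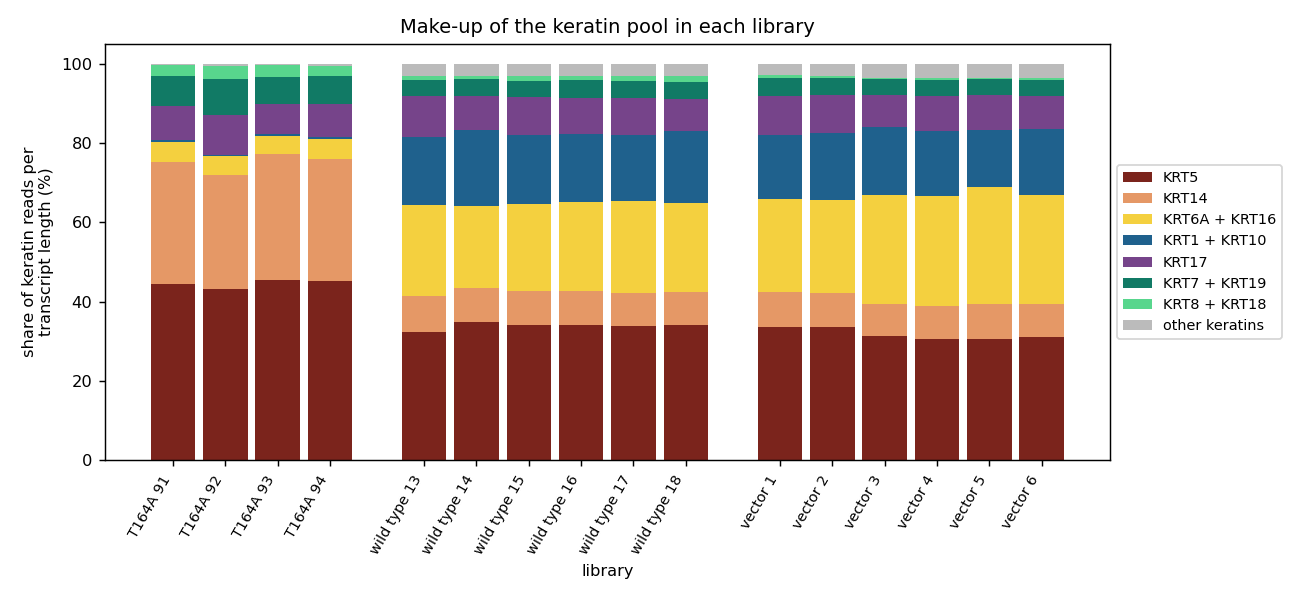
Share of the keratin pool per transcript length (vertical axis, percent) in each of the 16 libraries, stacked by keratin or pair. KRT5 and KRT14 together fill most of the bar in T164A libraries, and the KRT1 with KRT10 segment, 17.6% in wild-type and 16.2% in vector libraries, is 0.447% there.

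The genes lie in 2 clusters, on chromosome 12 (27 members, type II except KRT18) and chromosome 17 (28 members, type I), and neighbours differed in size of change. Along chromosome 12, KRT6B, KRT6C, KRT6A and KRT5 stand next to each other and had differences of -5.11, -4.89, -4.20 and -1.59 in T164A against vector. KRT78, which fell by 4.56, is followed by KRT8 and KRT18, which rose by 0.68 and 1.02. Along chromosome 17, KRT9 fell by 5.89 and KRT16 fell by 4.87 on either side of KRT14, which had -0.21 and was not called. Gene order is that of the RefSeq annotation.

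**Figure D5:**
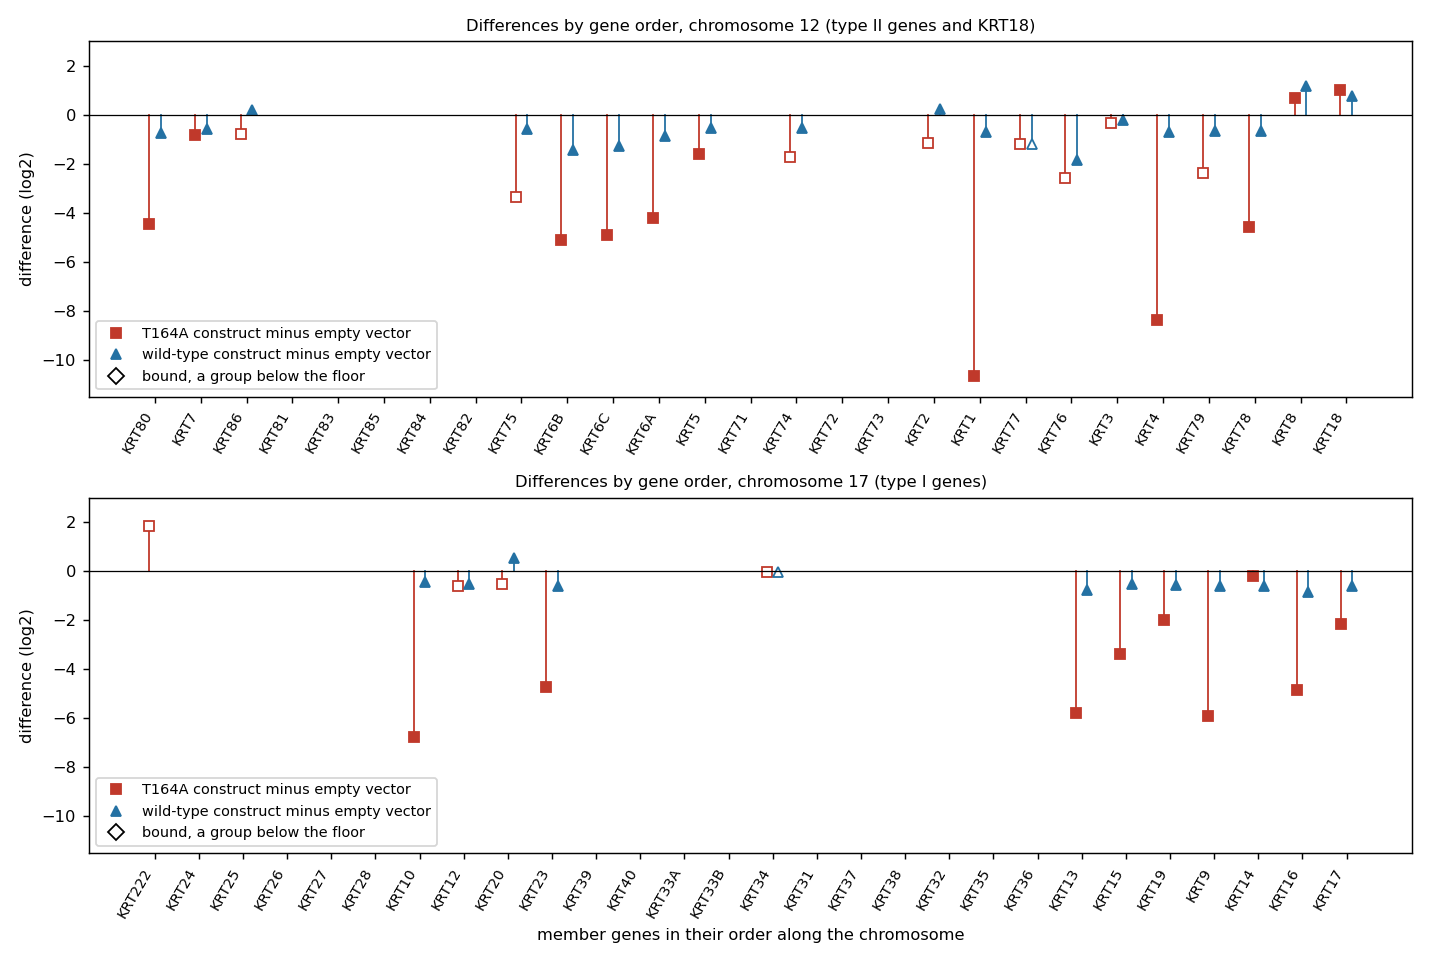
Difference from vector on the log2 scale (vertical axis) for each keratin in its order along chromosome 12 (upper panel) and chromosome 17 (lower panel); squares are T164A and triangles wild type, open ones are bounds, called and uncalled genes look alike, and genes below the floor in both groups have no point. KRT8 and KRT18 are the last 2 genes of the chromosome 12 cluster and lie above 0, next to KRT78 at -4.56 in T164A.

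Genes that work with keratins were read from lists of known roles, chosen with earlier results of these data known. Of 21 anchors and binding partners, 3 rose and 17 fell in T164A against vector, and 16 fell in wild type. The shares over all symbols were 37.1% rising and 27.2% falling in T164A, and 21% and 24.5% in wild type. FLG, which bundles keratin filaments in the upper epidermis, fell by 7.79 in T164A, its relative FLG2 had a difference of at most -5.08, and PKP2 and ITGB4, parts of desmosomes and hemidesmosomes, rose by 0.76 and 0.69. SFN, a member of the 14-3-3 family that binds keratins, fell by 0.79 in wild type, and JUP, a plaque protein of desmosomes, fell by 0.69. Of 22 transcription factors known to act on keratin genes, 20 fell in T164A, and 1 rose and 19 fell in wild type. ELF3 fell by 4.65 in T164A and EHF fell by 4.58, both epithelial ETS factors, whereas EHF rose by 2.16 in wild type. GRHL3, a factor of epidermal barrier formation, fell by 0.95 in wild type.

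Of 14 other intermediate filament genes, 8 were called higher and 3 lower in T164A against vector, beside 37.1% and 27.2% of all symbols. In wild type 2 rose and 5 fell, beside 21% and 24.5%. The 8 include DES, with means below the floor in both groups. VIM, the filament protein of mesenchyme and of many cultured cells, averaged 12.33 ± 0.04 in T164A, 7.44 ± 0.16 in wild-type and 7.54 ± 0.35 in vector libraries, and rose by 4.79 ± 0.13 in T164A (adjusted p = 8.01e-21). NES, a filament protein of progenitor cells, rose by 4.13 in T164A and 1.34 in wild type, and SYNM, a filament linker, fell by 1.99 in T164A and fell by 0.40 in wild type. Markers of other cell types also differed, and their counts stand beside the same shares of all symbols. Of 10 mesenchymal genes, 8 were called higher and 2 lower in T164A, with a summed share of reads of 0.121% to 0.133% in T164A, 0.0363% to 0.0417% in wild-type and 0.0337% to 0.0418% in vector libraries. COL1A1, a chain of fibrillar collagen, fell by 1.62, while COL1A2 had means below the floor in T164A and vector. The lists of other genes were all chosen with earlier results of these libraries known, so that their directions are no independent evidence. A further such list held 8 neural and embryonic genes, and all 8 were called higher in T164A. Its summed share was 0.122% to 0.131% in T164A, 0.00581% to 0.0105% in wild-type and 0.00130% to 0.00159% in vector libraries. Of 8 simple-epithelial genes outside the family, 8 were called lower in T164A, 1 of them (CLDN3) with means below the floor in both groups, and 3 rose and 2 fell in wild type. Their summed share was 0.0406% to 0.0480% in T164A, 0.211% to 0.220% in wild-type and 0.207% to 0.228% in vector libraries. Leukocyte and endothelial genes reached at most 0.00131% in any group, and 2 of 7 rose and 3 fell in T164A. The part of these genes' cells in the keratin differences was not tested.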

How the data were processed

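The deposited file holds log2 values in 21594 rows. The transformation that the authors applied is not stated in the labels or the header. Per the labels' protocols, poly-A RNA went through a TruSeq kit and was read on a HiSeq instrument. Build GRCh37 is given by the submitters' processing notes, which also list, without roles, Cufflinks 2.0.2, TopHat2 2.0.4 and CASAVA 1.8.2. Repeated symbols kept the row with the highest mean, leaving 20166. After an offset of 1.89, values above 11.5 lay on equal steps, but between 10 and 10.5 only 8.29% to 11.4% did (tolerance 0.05), so read counts could not be recovered and a log-scale test was used. Floors cover counting error only. All 16 libraries entered 1 limma model (3.58.1, R 4.3.3; variance trend, 13 residual degrees of freedom), tested on simulated data first. The members, as a family, and the gene lists were chosen with earlier results of these data known; symbols alone decided which genes belong to the family. Described in full were the 5 markers and every keratin with a group mean of at least 8; of the other lists, at most the 2 largest called differences in each direction with a mean of at least 6, and markers below the floor. The 55 members each had 1 row. No library pair agreed within sampling noise (chi-square per degree of freedom 4.34 to 152), but vector libraries 1 and 2, vector libraries 3, 4 and 6, wild type without 14 and T164A without 93 were closer to each other (at most 37.3) than other pairs of their groups (at least 39.4), and may share cultures, though by a narrow gap. Alternatives changed the normalization, filter, variance model, libraries and minimum fold. The over-expressed gene's own level, and the values of some listed genes, are not reported here.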

Additional observations from a re-analysis of the deposited data

Results flagged for a closer look

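Gaps within a group set 6 values apart, out of 54 groups of 4 or 6 libraries examined by Dixon's criterion, of which chance flags about 1 in 20. Vector library 5 was the highest for KRT6A at 15.79 (next 15.53), for KRT16 at 15.66 (next 15.27) and for KRT80 at 11.37 (next 11.16). T164A library 93 was the lowest for KRT17 at 12.20 (next 12.52) and for KRT8 at 9.94 (next 10.31). Wild-type library 14 was the lowest for KRT8 at 10.35 (next 10.79), and it also had the lowest summed share of luminal markers of its group, 0.362%. Leaving out any of these libraries ended no call of KRT6A, KRT16, KRT17 or KRT80, and the KRT8 difference of T164A and wild type was -0.42 (adjusted p = 0.117, limma) without T164A library 93.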

How the results depend on the processing

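No paired analysis was possible because the groups share no replicate numbers. Each of the 6 counts of called keratins was recomputed under 26 settings. The number higher in T164A against vector, 4 as reported, was 2 with a minimum fold of 1.2, with sets of close libraries averaged, and without vector libraries 3, 4 and 6. The number higher in T164A against wild type, 5 as reported, was 3 when genes below the floor were removed, without a variance trend and with sets averaged, and 2 with the minimum fold. The number lower in wild type against vector was 15 with sets averaged, against 23, while over all symbols it was 1547, against 4939. Leaving out 1 library gave 3 to 4 higher and 29 to 32 lower in T164A against vector, 2 to 2 and 20 to 23 in wild type against vector, and 3 to 5 and 27 to 31 in T164A against wild type. The KRT14 difference of T164A and vector turned to 0.0118 under quantile normalization. Of 1404 recomputed single-gene differences, 1364 kept their direction and side of the threshold, 34 lost the call and 5 gained it, in 8 of the 54 gene differences. Quantile normalization also brought KRT6A, KRT16, KRT17 and KRT14 in wild type against vector to -0.52, -0.48, -0.28 and -0.34, still called. KRT5 and KRT10 in wild type against vector lost it with sets averaged (-0.49 and -0.32). The cause of these shifts was not tested. Depth limits the members near the floor of 2.30: below it only bounds are given, and differences of means just above it (KRT1, KRT4, KRT9, KRT23 and KRT78 in T164A) rest on few estimated reads.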

Other observations

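The vector libraries were not alike in their keratins. Libraries 1 and 2 had 9.98 and 9.87 for KRT6B, against 10.78 to 11.07 in the other vector libraries, 8.36 and 8.40 for KRT6C against 9.13 to 9.53, 10.62 and 10.71 for KRT13 against 11.01 to 11.34, and 3.44 and 3.81 for KRT76 against 5.22 to 5.71. KRT18 was higher in libraries 1 and 2, at 9.46 and 9.47, against 8.80 to 9.03. No comparison was made between these libraries, since the labels give them 1 group.

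Wild-type libraries differed in total keratin and in luminal markers. Library 18 had the lowest KRT5 (16.26), KRT14 (13.59) and KRT17 (13.58) of its group and the highest summed share of luminal markers, 0.778% of reads. Library 14 had the lowest luminal share, 0.362%, and the highest KRT5, 16.72. These values are given as a description.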
